A study of Mus musculus with 9 samples.

Results

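Transcripts of the proteasome were compared between dopaminergic neurons of the mouse midbrain and the whole midbrain. The members are the 50 rows, of 24487 in the deposited table, whose gene symbol begins with Psma to Psmg and a number, leaving out symbols that mark pseudogenes. They comprise 8 alpha and 7 constitutive beta subunits of the 20S core, 4 beta subunits known as immune (inducible) or thymic forms, 6 ATPases and 11 other subunits of the 19S regulatory particle, 3 assembly chaperones of the 19S particle and 4 of the 20S core, 6 activators or inhibitors, and Psmc3ip, which matches the naming rule but encodes a partner of meiotic recombination enzymes and no part of the proteasome. The study holds 9 RNA-seq libraries from C57BL/6 mice, 4 labelled as dopaminergic neurons from midbrain and 5 labelled as whole midbrain. The labels give no age, sex, transgene or treatment for either group, and leave unsaid whether each library is a different animal. The p-values below therefore speak only for the spread among these libraries, which may be technical. No label tells by what method dopaminergic RNA was obtained. In its title the deposited table carries the term bacTRAP, a method that captures tagged ribosomes of 1 cell type with the RNA on them, so cell type, isolation method and ribosome-bound against total RNA cannot be told apart here.

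The proteasome is the main protease of the cytosol and nucleus and degrades proteins marked with ubiquitin. Its 20S core is a barrel of 4 stacked rings, in which outer alpha rings gate the entrance and inner beta rings hold the protease sites, and the 19S particle binds ubiquitin chains, removes them, unfolds the substrate with a ring of ATPases and feeds it into the core. Alternative caps open the core without ubiquitin, and in immune cells or after interferon the catalytic subunits are exchanged for immune forms. Impaired protein degradation has long been studied in dopaminergic neurons because their loss in Parkinson disease is accompanied by protein inclusions.

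Genes of the proteasome are known to be activated together by the factor encoded by Nfe2l1 through antioxidant response elements in their promoters. Promoters in the RefSeq table (GRCm38.p6, the same assembly as mm10) matched 42 of the 50 members. The letters TGACNNNGC, searched on both strands in the 250 bases before each gene's start, were found for 5 of the 42, 11.9 percent, against 11.5 percent of all 27025 genes with a promoter. These 5 windows are shown because they hold the element, in capitals, with up to 20 bases on either side, 5′ to 3′ on the strand of the gene.
Psmb5 (chr14:54618014-54618062, minus strand): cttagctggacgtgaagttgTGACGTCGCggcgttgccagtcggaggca
Psmb6 (chr11:70525328-70525356, plus strand): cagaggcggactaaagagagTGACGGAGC
Psmc6 (chr14:45329577-45329625, plus strand): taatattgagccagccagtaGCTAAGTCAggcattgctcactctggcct
Psmd12 (chr11:107479278-107479309, plus strand): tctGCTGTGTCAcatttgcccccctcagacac
Psmd9 (chr5:123228139-123228187, plus strand): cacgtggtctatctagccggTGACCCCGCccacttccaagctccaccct
In Psmb5, Psmb6 and Psmd9 the element reads along the gene and begins 47, 9 and 31 bases before its start, and in Psmc6 and Psmd12 it lies on the opposite strand. The CCAAT box was found in 35.7 percent of the 42 promoters against 37.5 percent of all genes, and the interferon element GAAANNGAAA in 3 of 42, 7.14 percent, against 3.46 percent. Those 3 were Psmb3, Psmd4 and Psmd9. None of these motifs contains another. These are matches of letters in a short window only, and the first 2 shares are near those of all genes.

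Values are FPKM, read fragments per kilobase of transcript scaled to sequencing depth, as the authors deposited them. Read counts were not used here. Depth was estimated from the steps between low values of 1-exon chemoreceptor genes, at 47.2 to 62.5 megareads in the dopaminergic libraries and 16.2 to 33.5 megareads in whole midbrain. The 4 dopaminergic markers Th, Slc6a3, Slc18a2 and Ddc summed to 3542 to 3939 FPKM in dopaminergic neurons and 199 to 229 FPKM in whole midbrain, and all 4 were called higher. All 10 markers of microglia, 10 of astrocytes, 10 of oligodendrocytes and 8 of endothelial cells were called lower, and none was at 0 in any library. Whole midbrain library 2 stood apart, with a correlation of 0.903 to 0.906 with its own group on the log2 scale across genes, against 0.947 to 0.962 among the other 4. It was the highest of the whole midbrain libraries for 35 of 48 members tested, against 45.3 percent of all genes tested, with a median ratio of 1.5 to the mean of the other 4. The counts over all members are therefore given with and without it, as are the members described singly whose call it changed and some others. The summed FPKM of all rows was 506466 to 521822 in dopaminergic neurons and 309275 to 409130 in whole midbrain, so the scaling of the libraries bears on every difference in level. Dopaminergic values have at most 6 significant digits in 100 percent of rows, as Cufflinks writes them, against 25.5 to 28.7 percent of rows in whole midbrain, so the form of the values also differed with the group, which no label explains.

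Most proteasome genes had more transcript in the dopaminergic libraries. The members' summed level was 4665 to 4946 FPKM in dopaminergic neurons and 2173 to 3213 FPKM in whole midbrain, where library 2 had the highest sum and the other 4 stood at 2173 to 2288 FPKM. With limma on log2(FPKM + 1) and Benjamini-Hochberg adjustment over the 13106 genes that averaged 1 FPKM or more, 38 of the 48 members tested were higher at an adjusted p under 0.05, 1 was lower and 9 were not called. Of all genes tested, 38.3 percent were called higher and 36.0 percent lower. The median log2 difference of the 48 was 0.74, against 0.04 over all genes. In 31 members every dopaminergic library exceeded every whole midbrain library, a pattern seen in 32.6 percent of all genes tested. Without whole midbrain library 2, 45 members were higher and 2 lower, where 43.6 and 38.4 percent of all genes were.

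Both the counts and the place of the members above the median gene depended on the scaling. Rescaled to TPM, which sets every library to the same sum, the median of all genes moved to -0.55 and that of the members to 0.17, and 21 members were called higher and 9 lower against 17.2 and 56.4 percent of all genes. The members' median thus stood 0.70 above that of all genes in FPKM and 0.72 above it as TPM. Under quantile normalization it stood 0.32 above, with 27 higher and 5 lower against 38.1 and 31.3 percent of all genes. Proteasome genes have short transcripts, and in these data the difference between the groups fell with exonic length, with a median of 0.63 in the shortest of 8 bins of genes (102 to 1844 bases) and -0.43 in the longest. After a loess correction for exonic length 29 members were higher and 2 lower against 36.7 and 35.7 percent of all genes, and their median of 0.47 stood 0.46 above that of all genes. In 20 members the call and its direction were the same in each of the 22 alternatives run, which include these scalings and leaving out each library in turn. They were 19 that rose, namely the 7 constitutive beta subunits, Psmb10, Psma4, Psma7, Psmd3, Psmd4, Psmd7, Psmd8, Psmd10, Psme1, Psme2, Psmg3 and Psmg4, and Psme4, which fell. The share of all genes that kept a call in this way was not computed, so the 20 members cannot be set against it.

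**Figure D1:**
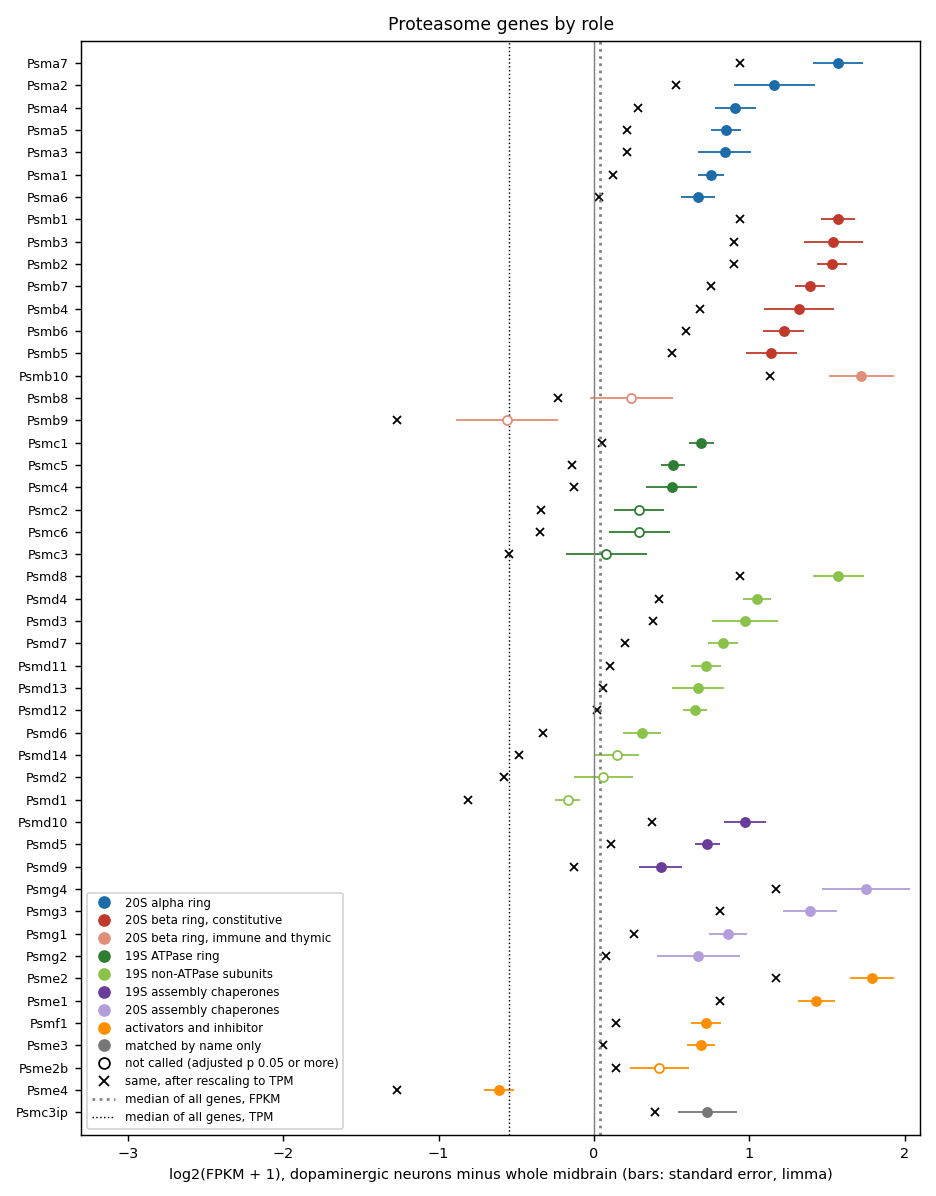
Difference of each tested member between dopaminergic neurons and whole midbrain on the log2(FPKM + 1) scale (horizontal axis, circles with standard error, n = 4 and 5 libraries), grouped by role, with open circles for members not called and crosses for the same difference as TPM. Constitutive beta subunits lie between 1.14 and 1.57 and the 19S ATPases between 0.08 and 0.69, and rescaling to TPM moves every member to the left, as it does the median of all genes (dotted lines, 0.04 and -0.55).

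**Figure D2:**
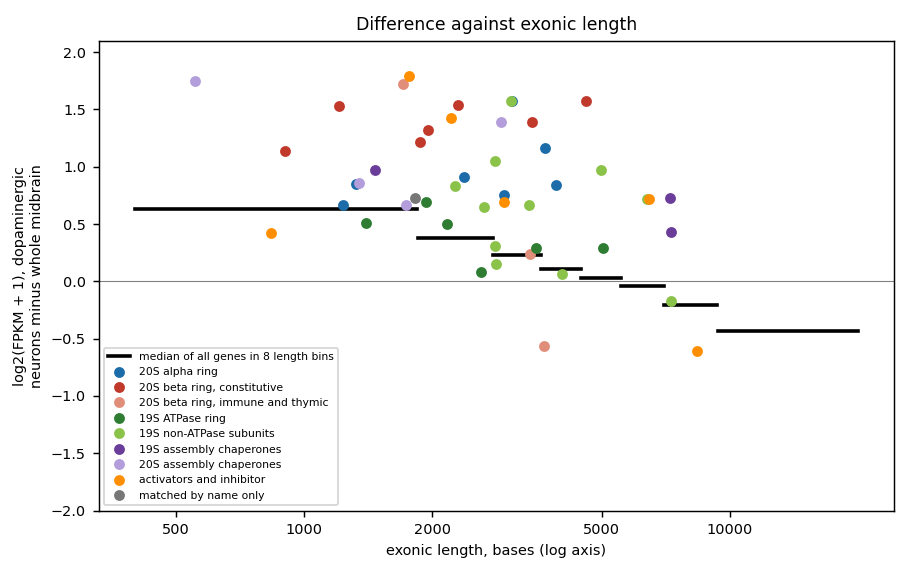
Difference of each tested member (vertical axis, log2(FPKM + 1), dopaminergic neurons minus whole midbrain) against its exonic length in bases (log axis), with the median of all genes in 8 length bins as black bars, the outermost shortened. The bars fall from 0.63 to -0.43, and most members lie above the bar of their length.

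All 14 constitutive subunits of the 20S core were called higher, where 38.3 percent of all genes were. Their median log2 difference was 1.19 (1.39 in the beta ring and 0.85 in the alpha ring), or 1.38 without whole midbrain library 2. In 13 every dopaminergic library exceeded every whole midbrain library, as in 32.6 percent of all genes. As TPM 11 were called higher, under quantile normalization 9 and after length correction 12, against 17.2, 38.1 and 36.7 percent of all genes. The 7 beta subunits ranged from 1.14 to 1.57 and kept their calls as TPM, under quantile normalization and after length correction. Psmb7, which carries the trypsin-like site (chromosome 2, 38588046 to 38643906, mm10), was the most abundant core transcript by the mean of either group, though Psmb4 exceeded it in whole midbrain library 2, and stood at 403, 387, 414 and 386 FPKM in dopaminergic libraries 1 to 4, against 143, 183, 150.2, 142 and 142 FPKM in whole midbrain libraries 1 to 5. Every dopaminergic value was more than that of library 2, the highest of whole midbrain. Dopaminergic neurons averaged 398 ± 13.3 FPKM (SD, n = 4) and whole midbrain 152 ± 17.5 FPKM (SD, n = 5), and the ratio of means was 2.62 (log2 1.39 ± 0.097 SE, limma adjusted p = 5.6e-07).

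Psmb5, the chymotrypsin-like subunit (chromosome 14, 54614120 to 54617995), had the smallest rise of the ring, at 189, 210.4, 225 and 209 FPKM in dopaminergic neurons, against 81.6, 144, 83.0, 84.1 and 88.8 FPKM in whole midbrain. The groups did not overlap, although library 2 stood well above the rest of whole midbrain. Its log2 difference was 1.14 ± 0.164 SE (limma adjusted p = 0.00011), and 0.30 after length correction, with an exonic length of 899 bases. Psmb6, the caspase-like subunit, was at 177, 182, 197 and 193 FPKM in dopaminergic neurons, against 73.5, 111, 71.4, 70.8 and 77.6 FPKM in whole midbrain (log2 1.22 ± 0.132 SE, limma adjusted p = 1.3e-05).

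Among the structural beta subunits, which have no protease site, Psmb1 (chromosome 17, 15475721 to 15498276) was at 219, 204, 235 and 221 FPKM in dopaminergic neurons, against 71.2, 93.6, 73.1, 64.8 and 66.4 FPKM in whole midbrain, a 2.98-fold difference in means (log2 1.57 ± 0.112 SE, limma adjusted p = 6.4e-07). For Psmb3 the libraries read 192, 204, 221 and 205 FPKM in dopaminergic neurons, against 59.9, 118, 62.7, 59.9 and 64.0 FPKM in whole midbrain. Neither showed overlap, and the log2 difference of Psmb3, 1.54, was 1.72 without library 2. Psmb2 averaged 245 ± 13.9 FPKM in dopaminergic neurons and 84.1 ± 8.84 FPKM in whole midbrain, and was the one core subunit that library 2 held at the lowest level of its group, 72.4 FPKM. Psmb4 averaged 301 ± 18 FPKM in dopaminergic neurons and 127 ± 54.9 FPKM in whole midbrain, or 103 FPKM there without library 2.

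In the alpha ring the differences ran from 0.67 to 1.57 on the log2 scale. Psma7 led, at 287, 277, 310.1 and 290.3 FPKM in dopaminergic neurons, against 84.9, 149, 89.6, 82.5 and 93.1 FPKM in whole midbrain (log2 1.57 ± 0.163 SE, limma adjusted p = 9.5e-06). The next was Psma2, at 222, 203, 241 and 230.2 FPKM in dopaminergic neurons, against 79.7, 207, 88.2, 79.8 and 83.2 FPKM in whole midbrain. It is the one core subunit with an overlap, since library 2 stood above dopaminergic library 2, and its log2 difference of 1.16 became 1.43 without whole midbrain library 2 and was not called under quantile normalization (0.39).

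Psma1 was the least abundant core subunit in all 9 libraries, at 80.9, 67.9, 75.3 and 74.2 FPKM in dopaminergic neurons, against 40.1, 46.5, 48.2, 43.9 and 41.0 FPKM in whole midbrain (log2 0.75 ± 0.083 SE, limma adjusted p = 1.5e-05), a call lost as TPM (0.12) and under quantile normalization (0.18). Psma6 had the smallest rise, with 209, 175, 186 and 195 FPKM in dopaminergic neurons, against 111, 149.9, 116, 105 and 118 FPKM in whole midbrain, and its log2 difference of 0.67 turned to -0.15 under quantile normalization and -0.04 after length correction. As TPM 4 of the 7 alpha subunits were called higher and none lower, against 17.2 and 56.4 percent of all genes. Psma8, the alpha subunit known from testis, was under the minimum for testing. It was listed at 0 in dopaminergic libraries 1 to 3 and at 0.0763 FPKM in library 4, and at 0.160 to 0.891 FPKM in whole midbrain.

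**Figure D3:**
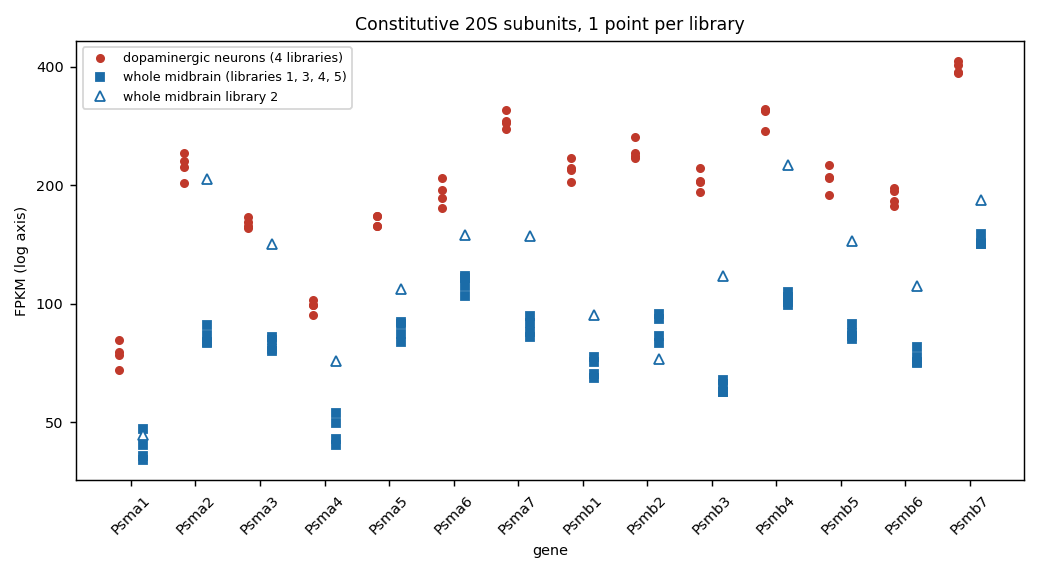
FPKM (log axis) of the 14 constitutive 20S subunits in each library, with dopaminergic neurons as circles and whole midbrain as squares, and whole midbrain library 2 as open triangles. Psmb7 is at 386 to 414 FPKM in dopaminergic neurons and 142 to 183 FPKM in whole midbrain, and library 2 reaches a dopaminergic value for Psma2 alone.

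The subunits of the 19S particle were mixed. Of the 17, 11 were called higher, none lower and 6 neither, with a median log2 difference of 0.51. Of all genes, 38.3 percent were called higher and 36.0 percent lower. As TPM 4 were higher and 7 lower, where 17.2 and 56.4 percent of all genes were, and their median of -0.13 stood 0.42 above that of all genes. Under quantile normalization 6 were higher and 4 lower, against 38.1 and 31.3 percent of all genes (median -0.02). After length correction 7 were higher and none lower, against 36.7 and 35.7 percent (median 0.21). Without whole midbrain library 2, 16 were higher and 1 was lower, where 43.6 and 38.4 percent of all genes were. The 19S subunit Shfm1 and the ubiquitin receptor Adrm1 do not match the naming rule and are not among the 17. Both were called higher, at log2 differences of 2.06 and 1.10.

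The 6 ATPases, which unfold the substrate, had a median of 0.40, and 3 were called higher, against 38.3 percent of all genes. Psmc1 (chromosome 12, 100112331 to 100123364) was at 123, 142, 116 and 120.0 FPKM in dopaminergic neurons, against 79.9, 78.2, 79.7, 77.7 and 71.7 FPKM in whole midbrain (log2 0.69 ± 0.081 SE, limma adjusted p = 2.5e-05). That call was lost as TPM (0.05), under quantile normalization (0.01) and after length correction (0.21). Psmc5 was the most abundant of the 17 name-matched 19S transcripts in all libraries, at 255, 260.1, 260.4 and 270.2 FPKM in dopaminergic neurons, against 191, 171, 191, 176 and 191 FPKM in whole midbrain. Its log2 difference of 0.51 (limma adjusted p = 0.00016) was -0.14 as TPM, -0.37 under quantile normalization and -0.15 after length correction. The call for Psmc4, at a log2 difference of 0.50, turned sign as TPM (-0.13) and under quantile normalization (-0.02), and was lost without dopaminergic library 3 (0.43).

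Psmc3 was at 31.7, 34.7, 32.7 and 31.9 FPKM in dopaminergic neurons, against 23.9, 64.6, 27.9, 27.1 and 23.8 FPKM in whole midbrain. The groups overlapped through library 2, which lay above all dopaminergic libraries, and the log2 difference was 0.08 ± 0.258 SE (limma adjusted p = 0.783), or 0.34 without that library (limma adjusted p = 0.000472) and -0.55 as TPM. For Psmc6 the levels were 59.2, 51.0, 45.6 and 51.4 FPKM in dopaminergic neurons, against 34.6, 71.3, 39.1, 38.0 and 35.8 FPKM in whole midbrain, with a log2 difference of 0.29 that was not called and was -0.35 as TPM and -0.18 under quantile normalization. Psmc2 was not called either, at 0.29 (-0.34 as TPM and -0.20 under quantile normalization). Without whole midbrain library 2 each of the 6 ATPases was called higher, where 43.6 percent of all genes were. As TPM without it 4 were called lower and none higher, where 8263 of all 12959 genes tested were lower and 2681 higher.

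Among the 11 other 19S subunits, 8 were called higher, with a median of 0.67, where 38.3 percent of all genes were. As TPM 4 were called higher and 4 lower, against 17.2 and 56.4 percent of all genes. Psmd8, a lid subunit (chromosome 7, 29174187 to 29180673), was at 115, 106, 113 and 102 FPKM in dopaminergic neurons, against 28.6, 55.5, 34.6, 32.4 and 34.6 FPKM in whole midbrain, a 2.94-fold difference in means (log2 1.57 ± 0.164 SE, limma adjusted p = 1e-05). It was the third of the 17 subunits by mean level in dopaminergic neurons and number 13 in whole midbrain. Psmd4, a receptor for ubiquitin chains, was at 90.6, 88.9, 99.3 and 91.9 FPKM in dopaminergic neurons, against 42.3, 52.6, 43.4, 39.3 and 43.7 FPKM in whole midbrain (log2 1.05 ± 0.090 SE, limma adjusted p = 2.4e-06). The groups did not overlap for either, and without whole midbrain library 2 the log2 differences were 1.72 for Psmd8 and 1.12 for Psmd4.

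The scaffold subunits of the base stood apart from these. Psmd1 was at 40.9, 40.0, 40.0 and 38.0 FPKM in dopaminergic neurons, against 46.1, 38.1, 46.8, 48.9 and 45.5 FPKM in whole midbrain (log2 -0.17 ± 0.082 SE, limma adjusted p = 0.0777). Library 2 lay within the dopaminergic range, and without it Psmd1 was called lower, at -0.23 (limma adjusted p = 0.000678). It was also called lower as TPM (-0.81), under quantile normalization (-0.64) and under upper-quartile scaling (-0.41), and stood at -0.00 after length correction. Psmd2 was at 38.0, 34.3, 40.8 and 37.9 FPKM in dopaminergic neurons, against 32.5, 61.7, 30.2, 32.4 and 31.3 FPKM in whole midbrain, a log2 difference of 0.06 (limma adjusted p = 0.795) that was 0.25 and called without library 2 and -0.58 as TPM. Of the lid, Psmd14, which cleaves ubiquitin from the substrate, averaged 57.0 ± 1.34 FPKM in dopaminergic neurons and 52.1 ± 12.3 FPKM in whole midbrain and was not called (log2 0.15, 0.28 and called without library 2, and -0.48 as TPM). The call for Psmd6, another lid subunit at 0.31 on the log2 scale, turned sign as TPM (-0.33) and under quantile normalization (-0.27). It was also lost when any library other than dopaminergic library 4 or whole midbrain library 2 was left out (0.26 to 0.32).

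Differences between members inside 1 library do not change when all its values are multiplied by 1 factor. Quantile normalization is not such a factor and can change them. The median log2 FPKM of the 14 core subunits minus that of the 17 name-matched 19S subunits was 1.75, 1.87, 1.99 and 1.83 in dopaminergic libraries 1 to 4, against 1.08, 1.04, 0.94, 1.02 and 1.01 in whole midbrain libraries 1 to 5. The groups did not overlap, library 2 lay among its own group, and the means differed by 0.84 on the log2 scale. The median of the beta ring minus that of the alpha ring was 0.40, 0.33, 0.57 and 0.48 in dopaminergic neurons, against 0.01, -0.27, -0.02, 0.05 and -0.06 in whole midbrain. Within the 19S particle, the other subunits minus the ATPases gave -0.19 to 0.10 in dopaminergic neurons and -0.33 to 0.18 in whole midbrain, with overlap. These are descriptions of chosen genes without a test. Exonic length differed among the groups of subunits, with medians of 1951 bases for the beta ring, 2952 for the alpha ring, 2385 for the ATPases and 3057 for the other 19S subunits. After length correction the median log2 difference between the groups was 0.84 for the beta ring, 0.55 for the alpha ring, 0.11 for the ATPases and 0.44 for the other 19S subunits. Under quantile normalization that median was 0.44 for the core and -0.02 for the 19S particle. It was 0.49 for the beta ring and 0.18 for the alpha ring.

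Levels inside the core also spread further in dopaminergic neurons than in whole midbrain apart from library 2. The SD of log2 FPKM across core subunits was 0.61 to 0.65 in dopaminergic neurons and 0.42 to 0.49 in whole midbrain, with library 2 at 0.64. The most abundant core subunit was 4.99 to 5.70 times the least abundant in dopaminergic neurons, and 3.12 to 3.55 times in whole midbrain apart from library 2, where the ratio was 4.85. Among the 17 name-matched 19S subunits the ratio was 9.90 to 11.9 in dopaminergic neurons and 17.4 to 20.4 in whole midbrain apart from library 2, at 8.26. The 19S subunit Shfm1 is not among them, and it exceeded Psmc5 in every dopaminergic library and in whole midbrain library 2. The SD across the 17 differed little, at 0.88 to 0.92 in dopaminergic neurons and 0.93 to 0.95 in whole midbrain apart from library 2, at 0.75. Psmd3, a lid subunit, was the least abundant of the 19S particle in 3 of 4 dopaminergic and 4 of 5 whole midbrain libraries. By mean level it was at 24.2 ± 1.84 FPKM in dopaminergic neurons and 12.5 ± 5.32 FPKM in whole midbrain.

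The immune beta subunits did not move together. Psmb10 rose, while Psmb8 and Psmb9 were low in both groups and not called. Psmb10, the immune counterpart of Psmb7 (chromosome 8, 105935728 to 105938392), was at 51.3, 46.2, 51.8 and 52.7 FPKM in dopaminergic neurons, against 13.4, 26.7, 11.9, 12.3 and 12.6 FPKM in whole midbrain, a 3.28-fold difference in means (log2 1.72 ± 0.207 SE, limma adjusted p = 2.9e-05). The groups did not overlap, and without library 2 the log2 difference was 1.93. Relative to Psmb7 it stood at 12.7, 11.9, 12.5 and 13.6 percent in dopaminergic neurons, against 9.38, 14.6, 7.92, 8.64 and 8.89 percent in whole midbrain, where library 2 was above all others. The exonic lengths are unlike, at 1705 bases for Psmb10 and 3421 for Psmb7. After length correction the log2 differences between the groups were 1.17 for Psmb10 and 1.22 for Psmb7.

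Psmb8, the counterpart of Psmb5, was at 2.40, 2.86, 2.69 and 2.67 FPKM in dopaminergic neurons, against 1.13, 5.18, 1.32, 2.03 and 2.11 FPKM in whole midbrain (log2 0.24 ± 0.267 SE, limma adjusted p = 0.442). Without library 2 it was called higher, at 0.48 (limma adjusted p = 0.00586), and as TPM its difference was -0.23. Relative to Psmb5 it stood at 1.20 to 1.36 percent in dopaminergic neurons and 1.39 to 3.59 percent in whole midbrain. After length correction the log2 differences between the groups were 0.06 for Psmb8 (3381 bases) and 0.30 for Psmb5 (899 bases).

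Psmb9, the counterpart of Psmb6, varied more between dopaminergic libraries than any other tested member, at 2.08, 0.526, 5.49 and 2.70 FPKM, against 3.61, 3.59, 3.47, 4.47 and 3.90 FPKM in whole midbrain (log2 -0.56 ± 0.327 SE, limma adjusted p = 0.147). Dopaminergic library 3 was above all whole midbrain libraries and the other 3 were below them. It was called lower without dopaminergic library 3 (-0.89) and as TPM (-1.27, limma adjusted p = 0.0136). Relative to Psmb6 it stood at 1.17, 0.289, 2.78 and 1.40 percent in dopaminergic neurons, all below the 3.24 to 6.31 percent of whole midbrain. After length correction the log2 differences between the groups were -0.70 for Psmb9 (3660 bases) and 0.73 for Psmb6 (1872 bases). Exons of Psmb9 share 212 bases with Tap1 on the opposite strand, and those of Psmb8 share 498 bases with an antisense gene, and no source used here gives the handling of strand. Exons of Psmb7, Psmc3, Psmd1, Psmd9 and Psmd13 likewise share 405, 215, 252, 1849 and 342 bases with a gene on the opposite strand. Those of Psma4 and Psmc3ip share 114 and 385 bases in the same way. On the same strand, exons of Psmb5, Psmd1 and Psmg3 share 109, 301 and 280 bases with another gene. The 10 microglial markers summed to 18.9 to 26.3 FPKM in dopaminergic neurons and 159 to 201 FPKM in whole midbrain, and their part in the levels of the immune subunits was not tested. In bulk libraries, fewer cells of a type and less RNA per cell cannot be told apart. Psmb11, the thymic subunit, was at 0.00500 to 0.0411 FPKM in dopaminergic neurons and 0.0299 to 0.139 FPKM in whole midbrain and was not tested.

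Activators of the core went in opposite directions. Psme2 and Psme1, which form the cytosolic PA28 cap, rose, and Psme4, the large nuclear cap PA200, was the one member called lower. Psme2 (chromosome 14, 55587440 to 55591101) was at 124, 105, 121 and 123 FPKM in dopaminergic neurons, against 32.1, 47.3, 27.5, 29.9 and 32.4 FPKM in whole midbrain, a 3.49-fold difference in means (log2 1.79 ± 0.143 SE, limma adjusted p = 1.4e-06). The figures for Psme1, its partner in the ring, were 124, 116, 132 and 125 FPKM in dopaminergic neurons, against 40.5, 60.0, 44.9, 39.8 and 44.4 FPKM in whole midbrain (log2 1.43 ± 0.118 SE, limma adjusted p = 1.8e-06). Neither overlapped between groups. Relative to the median name-matched 19S subunit of the same library, the mean log2 level of the pair was 0.99 to 1.17 in dopaminergic neurons and -0.30 to -0.09 in whole midbrain. Psme2b, a gene whose transcript is 99.4 percent identical to that of Psme2 over 794 bases, was at 1.43, 1.45, 1.51 and 1.68 FPKM in dopaminergic neurons, against 0.631, 1.96, 0.453, 0.980 and 0.711 FPKM in whole midbrain. It was not called, was called higher without library 2 (0.58) and lower after length correction (-0.44), and its split of reads with Psme2 is uncertain.

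Psme4 (chromosome 11, 30771775 to 30880361) was at 6.15, 6.54, 6.37 and 6.42 FPKM in dopaminergic neurons, against 10.7, 7.99, 10.6, 11.4 and 11 FPKM in whole midbrain. All dopaminergic libraries lay below library 2, the lowest of whole midbrain, and the log2 difference was -0.61 ± 0.098 SE (limma adjusted p = 0.00024), -1.27 as TPM and -0.38 after length correction. It also has the longest exonic length of the tested members, 8382 bases. Psme3, the nuclear PA28 form, averaged 57.7 ± 3.56 FPKM in dopaminergic neurons and 35.6 ± 3.47 FPKM in whole midbrain (log2 0.69, and 0.06 as TPM, where it was not called). Psmf1, known as an inhibitor of the core in vitro, averaged 14.3 ± 1.02 FPKM in dopaminergic neurons and 8.29 ± 1.03 FPKM in whole midbrain (log2 0.72, and 0.14 as TPM, not called there).

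**Figure D4:**
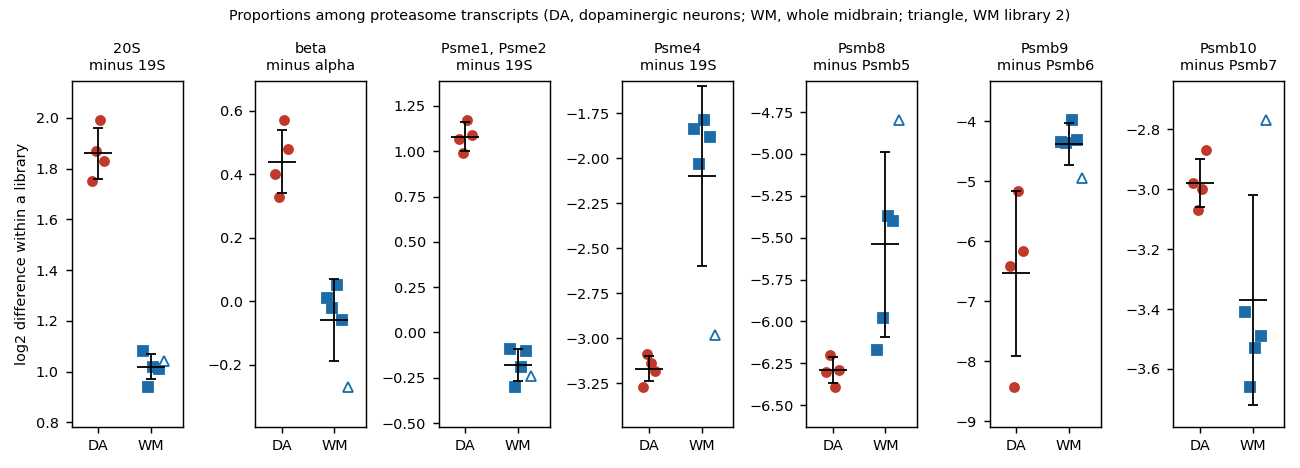
Differences on the log2 FPKM scale between members of the same library (vertical axes, each with its own range), 1 point per library, with dopaminergic neurons (DA) left of whole midbrain (WM), library 2 of whole midbrain as a triangle, and mean ± SD as bars. The median of the 20S core exceeds that of the name-matched 19S subunits by 1.75 to 1.99 in dopaminergic neurons and 0.94 to 1.08 in whole midbrain. The Psme1 and Psme2 pair is higher and Psme4 lower relative to these 19S subunits in every dopaminergic library.

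All 7 assembly chaperones were called higher, with a median of 0.86, where 38.3 percent of all genes were. As TPM 3 were called higher (median 0.26), against 17.2 percent of all genes. Quantile normalization gave 6 (median 0.65) and length correction 5 (median 0.60), against 38.1 and 36.7 percent. None was called lower. The pair Psmg3 and Psmg4, which helps the alpha ring form, led in FPKM as deposited. Psmg4 (chromosome 13, 34162964 to 34178172) was at 42.9, 36.3, 48.5 and 44.6 FPKM in dopaminergic neurons, against 10.1, 27.1, 10.4, 8.03 and 10.8 FPKM in whole midbrain, a 3.24-fold difference in means (log2 1.75 ± 0.283 SE, limma adjusted p = 0.00025). Psmg3 was at 31.1, 30.7, 30.4 and 29.2 FPKM in dopaminergic neurons, against 7.82, 17.0, 11.9, 10.1 and 9.84 FPKM in whole midbrain (log2 1.39 ± 0.172 SE, limma adjusted p = 3.6e-05). The groups did not overlap for either, and library 2 was the highest of whole midbrain for both. Without it the log2 differences were 2.02 for Psmg4 and 1.53 for Psmg3. After length correction of all libraries they were 0.86 for Psmg4, with an exonic length of 555 bases, and 1.14 for Psmg3.

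The pair Psmg1 and Psmg2, which acts at the same step, had smaller differences. Psmg1 was at 27.4, 26.5, 26.3 and 30.4 FPKM in dopaminergic neurons, against 14.7, 18, 16.3, 14.4 and 11.1 FPKM in whole midbrain (log2 0.86 ± 0.121 SE), and was not called as TPM (0.26) or after length correction (0.19). In Psmg2 the values were 18.2, 21.5, 19.5 and 19.6 FPKM in dopaminergic neurons, against 7.89, 25.9, 10.6, 10.8 and 10.3 FPKM in whole midbrain. Library 2 exceeded all dopaminergic libraries, and the log2 difference was 0.67 (limma adjusted p = 0.042), 0.93 without library 2 and 0.08 as TPM. That call was lost when any of the other 8 libraries was left out (0.53 to 0.71). The 4 chaperones together lay at -2.98 to -2.77 relative to the core on the log2 scale in dopaminergic neurons and -3.19 to -2.58 in whole midbrain, with overlap.

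The chaperones of the 19S ATPase ring had log2 differences of 0.43 to 0.97. After length correction these were 0.35 for Psmd10, 0.90 for Psmd5 and 0.60 for Psmd9. Psmd10, also called gankyrin, was at 27.3, 30.1, 29.6 and 28.6 FPKM in dopaminergic neurons, against 11.7, 19.7, 14.6, 14.6 and 11.9 FPKM in whole midbrain (log2 0.97 ± 0.134 SE, limma adjusted p = 8e-05). Psmd5 was at 42.0, 36.2, 40.1 and 34.5 FPKM in dopaminergic neurons, against 21.4, 22.8, 24.3, 21.9 and 22.2 FPKM in whole midbrain, without overlap (log2 0.73 ± 0.078 SE, and 0.11 as TPM, where it was not called). Psmd9 was at 7.2, 9.05, 7.36 and 7.70 FPKM in dopaminergic neurons, against 4.72, 7.97, 5.06, 4.77 and 5.52 FPKM in whole midbrain, where library 2 lay inside the dopaminergic range, and its log2 difference of 0.43 became -0.13 as TPM and was not called without dopaminergic library 2 (0.37). Psmc3ip, the gene matched by name alone, was at 2.13, 2.90, 3.52 and 3.34 FPKM in dopaminergic neurons, against 0.695, 1.74, 0.957, 2.06 and 1.72 FPKM in whole midbrain (log2 0.73 ± 0.192 SE, limma adjusted p = 0.00578). Its log2 difference was 0.39 as TPM and 0.21 after length correction, and it was called in neither.

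Genes around the proteasome were read from lists chosen for function. Of 9 tested proteins bound to the proteasome, 6 were called higher and 1 lower, against 38.3 and 36.0 percent of all genes. Pomp, which guides beta ring assembly and is degraded by the finished core (chromosome 5, 147860628 to 147875778), was at 573, 571, 624 and 635 FPKM in dopaminergic neurons, against 202, 276, 193, 203 and 201 FPKM in whole midbrain, a 2.80-fold difference in means (log2 1.49 ± 0.120 SE, limma adjusted p = 1.6e-06). It was more abundant than any core subunit in every library. The small 19S subunit Shfm1 averaged 297 ± 25.8 FPKM in dopaminergic neurons and 87.3 ± 77.6 FPKM in whole midbrain, or 52.7 FPKM there without library 2, which held 226 FPKM. The ubiquitin receptor Adrm1 averaged 41.2 ± 3.85 FPKM in dopaminergic neurons and 18.8 ± 3.65 FPKM in whole midbrain. AI314180, named Ecpas in RefSeq and known as an adaptor of the assembled proteasome, was called lower at 17.8 ± 0.767 FPKM in dopaminergic neurons and 21.0 ± 0.947 FPKM in whole midbrain (log2 -0.23, limma adjusted p = 0.00905).

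Of 7 tested genes of transcriptional control, 3 were called higher and 1 lower, a share of higher calls near that of all genes (38.3 percent). Nfe2l1, whose product activates proteasome genes when the proteasome is overloaded (chromosome 11, 96817414 to 96829968), was at 78.7, 76.9, 88.3 and 84.6 FPKM in dopaminergic neurons, against 68.5, 59.4, 65.7, 60.6 and 63.6 FPKM in whole midbrain, without overlap. Its log2 difference of 0.36 (limma adjusted p = 0.00139) turned to -0.27 as TPM and -0.26 under quantile normalization. Nfe2l2, a related factor of the oxidative stress response (chromosome 2, 75675519 to 75704641), was at 2.77, 2.44, 3.28 and 3.50 FPKM in dopaminergic neurons, against 12.8, 16.2, 11.9, 14.6 and 14 FPKM in whole midbrain, 21.6 percent of the whole midbrain mean (log2 -1.90 ± 0.110 SE, limma adjusted p = 1.6e-07). Nfe2l2 is also expressed in glia. The 10 astrocyte markers summed to 183 to 221 FPKM in dopaminergic neurons and 1460 to 1588 FPKM in whole midbrain, and their part in this difference was not tested.

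Of 15 tested genes of ubiquitin and of delivery to the proteasome, 9 were called higher and 1 lower, against 38.3 and 36.0 percent of all genes. Ubb, which encodes ubiquitin as a chain of repeats, averaged 993 ± 72.3 FPKM in dopaminergic neurons and 569 ± 59.9 FPKM in whole midbrain (log2 0.81, limma adjusted p = 0.00012). Its log2 difference turned to -0.40 under quantile normalization and was 0.16 as TPM and 0.25 after length correction, none of them called.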

How the data were processed

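RNA was measured in 4 libraries of dopaminergic neurons and 5 of whole midbrain, grouped by their titles. The authors deposited FPKM per gene. The submitters' processing notes name mm10, Cufflinks 2.1.1 and TopHat2 2.0.8. Annotation, options and strand handling: not given in the sources used here. For each gene averaging 1 FPKM or more, log2(FPKM + 1), a scale that understates changes at low levels, was fitted by group in limma 3.58.1 (R 4.3.3), two-sided, allowing a trend of variance with level, with 3 prior and 7 residual degrees of freedom, Benjamini-Hochberg adjustment over all genes tested and a threshold of 0.05. The fit was tested on simulated data. Fold differences are ratios of mean FPKM. Within-library differences use log2 FPKM without a pseudocount. Exonic length is the union of exons in GENCODE M21 (GRCm38), found for 95.26 percent of genes tested. Near copies were sought with BLAST at 95 percent identity over 50 percent of the transcript or more, and Psma4, Psma5, Psmb3, Psmb5, Psmc1, Psmd2, Psmd11, Psme2 and Psme2b have one, so their reads may be split. Depth was estimated with a fragment of 200 bases assumed, and limits the precision of low values. Gene coordinates are 1-based spans from the deposited table.

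Every member found by the name rule could be named. Libraries are listed singly for the members with the 2 largest and 2 smallest differences in each role, members called lower, the catalytic pairs, Pomp, Nfe2l1 and Nfe2l2. Psmd14 and other members given by means, and the pathway genes given by means, were picked with their values in view. Some genes of the ubiquitin list are counted but not reported here singly. The members and lists were chosen with earlier results of these data known. Alternatives were pseudocounts of 0.1 and 5, no filter or a minimum of 5 FPKM, leaving out genes listed at 0, 4 other scalings, the length correction (loess, span 0.5), no trend, a block for the replicate number, library weights and leaving out each library. TPM and length correction without whole midbrain library 2 were added after seeing the data. Summaries used Python 3.11.15, NumPy 2.4.6, pandas 2.3.3 and matplotlib 3.10.9.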

Additional observations from a re-analysis of the deposited data

Results flagged for a closer look

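Each tested member was examined in both groups, 96 groups in all, for a library whose gap to the nearest other exceeded the 95 percent limit of Dixon's test (0.829 of the range for 4 libraries and 0.710 for 5), which chance passes in about 1 of 20 groups. It was passed 31 times, 28 of them by whole midbrain library 2. The 96 groups come from the same 9 libraries and are not independent, so this count cannot be set against 1 in 20. How often all genes passed the limit was not computed, and library 2 was the highest of its group for 45.3 percent of all genes tested. In that library the core subunits Psma2, Psma3, Psma6 and Psma7 were at 207, 142, 149.9 and 149 FPKM, and Psmb1, Psmb3, Psmb4, Psmb5, Psmb6 and Psmb7 at 93.6, 118, 225, 144, 111 and 183 FPKM, each above the rest of the group. The immune subunits Psmb8 and Psmb10 stood at 5.18 and 26.7 FPKM there. Of the 19S particle, Psmc2, Psmc3, Psmc4 and Psmc6 were at 66.4, 64.6, 66.9 and 71.3 FPKM, and Psmd2, Psmd3, Psmd8, Psmd13 and Psmd14 at 61.7, 21.9, 55.5, 24.8 and 73.3 FPKM. The chaperones Psmd9, Psmg2 and Psmg4 were at 7.97, 25.9 and 27.1 FPKM and the activators Psme1 and Psme2 at 60.0 and 47.3 FPKM. Psme3 and Psme4 were low in it, at 29.5 and 7.99 FPKM. The other 3 cases were Psmb4 and Psme2 in dopaminergic library 2, at 274 and 105 FPKM, and Psmc1 in whole midbrain library 5, at 71.7 FPKM, each below the rest of its group. What sets whole midbrain library 2 apart was not tested.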

How the results depend on the processing

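As TPM 2248 genes were higher and 7393 lower, against 5014 and 4717 as reported, and 2681 and 8263 as TPM without whole midbrain library 2. A minimum mean of 5 FPKM left 2493 lower. Members higher numbered 21 as TPM and 24 as TPM without library 2, against 38 as reported. Members lower numbered 1 as reported, 9 as TPM, 10 as TPM without library 2, 5 under quantile normalization, 3 after length correction without library 2, and 2 under upper-quartile scaling, with no filter, with library weights and after length correction. Of all 13106 genes tested, 4100 were lower under quantile normalization, 5673 under upper-quartile scaling and 5102 with library weights. With no filter 6877 of 20084 genes were lower. After length correction 4459 of 12485 were, and 4872 of 12354 without library 2. The members' median, 0.74 as reported, was 0.43 under quantile normalization, 0.17 as TPM, 0.23 as TPM without library 2, 0.47 after length correction and 0.44 after it without library 2. Leaving out single libraries gave 35 to 45 members higher, 1 or 2 lower and a median of 0.72 to 0.87. Over all genes it gave 4699 to 5654 higher and 4445 to 4974 lower, of 12959 to 13197 tested. Signs turned as TPM for Psmb8 (-0.23), Psmc2 (-0.34), Psmc3 (-0.55), Psmc4 (-0.13), Psmc5 (-0.14), Psmc6 (-0.35), Psmd2 (-0.58), Psmd6 (-0.33), Psmd9 (-0.13), Psmd14 (-0.48) and Nfe2l1 (-0.27). They turned under quantile normalization for Psma6 (-0.15), Psmc2 (-0.20), Psmc3 (-0.27), Psmc4 (-0.02), Psmc5 (-0.37), Psmc6 (-0.18), Psmd2 (-0.35), Psmd6 (-0.27), Psmd14 (-0.36), Nfe2l1 (-0.26) and Ubb (-0.40), under upper-quartile scaling for Psmc3 (-0.15), Psmd2 (-0.17) and Psmd14 (-0.08), and after length correction for Psma6 (-0.04), Psmc3 (-0.22), Psmc5 (-0.15), Psmd2 (-0.04), Psmd14 (-0.11) and Psme2b (-0.44). Without single libraries Psmc3 ranged from -0.01 to 0.34 and Psmd2 from -0.00 to 0.25. The causes were not tested. Pairing by replicate number was not seen: same-numbered libraries correlated at -0.0498 to 0.0190 in their deviations across genes. Of the 4 dopaminergic libraries, 0 correlated best with its own number. Low correlations over 4 numbers cannot tell whether libraries shared an animal or batch, which the labels leave unsaid. With the replicate block 36 members were higher and 1 lower, the median was 0.77, and Psmc3 was at -0.01. Of all 13106 genes tested, 4554 were higher and 4355 lower with it. The groups of 4 and 5 libraries and depths of 16.2 to 62.5 megareads limit what can be said of members near 1 FPKM.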
